A study of Mus musculus with 10 samples.

Results

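Antisense RNA from the 3000 bases upstream of moderately expressed coding genes was examined in testes of mice at postnatal day 4 (P4), in 5 control and 5 *Dis3* cKO libraries. A region was a member when its downstream gene was protein-coding and had a control mean of at least 20 and under 100 CPM (counts per 1000000 gene counts). This rule took 3081 of the 30166 upstream regions. It used the sense counts of the downstream gene in the control libraries, so the level of that gene is a description here and not a finding. At the lower bound, *Plekhf2* and *Pttg1* lay just inside (20.0021 and 20.0107 CPM) and *Trim39* and *C2cd5* just outside (19.9965 and 19.9906 CPM). At the upper bound, *Alms1* and *Tox* lay just inside (99.9516 and 99.9121 CPM) and *Wtap* and *Pik3ca* just outside (100.003 and 100.006 CPM).

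Each library held the RNA of both testes of 1 mouse of the strain labelled B6D2F1. The *Dis3* cKO mice carried a floxed *Dis3* allele over a deleted allele (*Dis3* F/−) and the *Ddx4-Cre* transgene, a Cre recombinase driven by the promoter of a germ cell gene, which is meant to delete the floxed allele in germ cells. By that genotype, somatic cells of these mice had 1 floxed and 1 deleted allele. Control mice were siblings labelled wild type, and whether they carried the transgene is not given in the sources used here. RNA was primed with random and poly(T) oligonucleotides, the strand was kept, and ribosomal RNA was depleted. In bulk RNA from whole testes, fewer cells of a type and less RNA per cell cannot be told apart.

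Promoters of many mammalian genes fire in both directions. The RNA made upstream, on the opposite strand, is called a promoter upstream transcript (PROMPT) and is usually removed at once in the nucleus. That removal is the work of the RNA exosome, a multi-subunit complex whose core holds no catalytic activity of its own and relies on the ribonucleases DIS3 and EXOSC10. Adaptors such as the nuclear exosome targeting complex, which contains ZCCHC8, hand such RNAs to the exosome. In textbook accounts PROMPTs are short, end early at poly(A) signals and lie in CpG-rich DNA, and their steady level is low while the exosome works.

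Gene counts were 35391042 to 41104912 per control library and 28538849 to 37739906 per *Dis3* cKO library. The member regions held 29984 to 39033 antisense counts in control and 50014 to 71809 in *Dis3* cKO libraries. The normalized *Dis3* count was 4114 to 5163 in control and 1362 to 1709 in *Dis3* cKO testes, with no overlap. Summed over the 71 germ cell genes listed, normalized counts were 84126 to 95857 in control and 60681 to 77592 in *Dis3* cKO, and the median log2 fold change of these genes was -0.51. Over all 5 libraries a group, sums of the Sertoli, Leydig, myoid, stromal, endothelial, macrophage and erythroid lists overlapped, and the median log2 fold change was 0.11 for Sertoli and 0.33 for stromal genes. None of the germ cell, Sertoli and Leydig markers was at 0 in all libraries. The libraries numbered 1 to 3 and those numbered 4 and 5 stood apart in both groups, a division that the labels do not name. Within replicates 1 to 3, Sertoli sums were 319770 to 323444 in control and 370523 to 393300 in *Dis3* cKO, and myoid sums 141275 to 144514 and 121422 to 137069. Within replicates 4 and 5, stromal sums were 663083 to 668912 and 1107580 to 1136350, and myoid sums 100296 to 100352 and 147593 to 148682. There the Leydig, endothelial, macrophage and erythroid sums were also higher in *Dis3* cKO without overlap, and the germ cell sums were lower in both sets without overlap. The part of these differences in the antisense values was not tested. Within groups, control 1 and 2, control 4 and 5, *Dis3* cKO 2 and 3, and *Dis3* cKO 4 and 5 were the closest pairs. No 2 libraries of a group were alike within counting noise (over genes, chi-square divided by its degrees of freedom was at least 4.36). Pairs across the groups were not examined. By this measure replicates 1 to 3 were not a uniform set. *Dis3* cKO 1 was at 21.4 and 26.1 from *Dis3* cKO 2 and 3, and at 29.1 and 32.2 from *Dis3* cKO 4 and 5. Control 3 was at 15.9 and 15.4 from control 1 and 2. Counts were divided by library sizes from the gene counts (TMM), and values below are normalized counts of this kind unless named CPM.

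The sequences below show DNA at the starts of genes whose upstream antisense RNA rose most. They are the 250 bases before the RefSeq gene start (GRCm38.p6) of 6 of the 12 regions with the largest increases, given on the antisense strand from 5′ to 3′, so that each begins beside the gene start and runs away from the gene, the way a PROMPT is read. Capitals mark CpG dinucleotides. The windows are chr13:112652311-112652560 for *Ddx4*, chr5:108065424-108065673 for *Mtf2*, chr10:81350458-81350707 for *Hmg20b*, chr9:20581078-20581327 for *Zfp846*, chr13:53377362-53377611 for *Sptlc1* and chr6:115995006-115995255 for *Plxnd1*. *Mtf2* and *Zfp846* are on the plus strand and the other 4 genes on the minus strand. The RefSeq start lay 165 bases inside the start used for the counts at *Ddx4* and 0 to 37 bases from it at the others. The first 165 bases of the *Ddx4* window, and up to 37 of the others, thus lay outside the counted regions. Where reads lay within the counted 3000 bases was not examined.
Ddx4: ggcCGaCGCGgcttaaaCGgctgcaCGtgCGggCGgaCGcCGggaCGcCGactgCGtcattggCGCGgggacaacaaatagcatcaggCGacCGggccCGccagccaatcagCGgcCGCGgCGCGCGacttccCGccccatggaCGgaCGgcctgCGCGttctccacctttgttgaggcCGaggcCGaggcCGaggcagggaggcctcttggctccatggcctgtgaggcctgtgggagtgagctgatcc
Mtf2: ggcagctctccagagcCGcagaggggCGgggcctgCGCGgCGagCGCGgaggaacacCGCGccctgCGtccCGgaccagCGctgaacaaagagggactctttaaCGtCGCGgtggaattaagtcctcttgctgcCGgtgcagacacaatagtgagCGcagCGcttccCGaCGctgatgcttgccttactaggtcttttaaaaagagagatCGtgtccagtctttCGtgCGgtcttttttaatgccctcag
Hmg20b: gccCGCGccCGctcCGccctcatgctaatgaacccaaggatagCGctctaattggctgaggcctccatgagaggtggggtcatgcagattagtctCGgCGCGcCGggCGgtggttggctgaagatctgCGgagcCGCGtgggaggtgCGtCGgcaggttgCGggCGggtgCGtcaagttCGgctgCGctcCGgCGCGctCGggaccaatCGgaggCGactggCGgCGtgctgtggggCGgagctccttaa
Zfp846: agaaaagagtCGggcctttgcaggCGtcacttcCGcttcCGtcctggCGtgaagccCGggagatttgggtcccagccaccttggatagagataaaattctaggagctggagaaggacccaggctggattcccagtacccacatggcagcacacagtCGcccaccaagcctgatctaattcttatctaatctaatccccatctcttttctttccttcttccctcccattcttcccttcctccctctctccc
Sptlc1: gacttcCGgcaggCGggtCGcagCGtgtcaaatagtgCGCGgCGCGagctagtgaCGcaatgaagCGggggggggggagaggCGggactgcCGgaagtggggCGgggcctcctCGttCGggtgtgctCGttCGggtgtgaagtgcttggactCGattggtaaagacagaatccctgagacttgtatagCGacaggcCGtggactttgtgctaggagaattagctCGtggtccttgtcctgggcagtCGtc
Plxnd1: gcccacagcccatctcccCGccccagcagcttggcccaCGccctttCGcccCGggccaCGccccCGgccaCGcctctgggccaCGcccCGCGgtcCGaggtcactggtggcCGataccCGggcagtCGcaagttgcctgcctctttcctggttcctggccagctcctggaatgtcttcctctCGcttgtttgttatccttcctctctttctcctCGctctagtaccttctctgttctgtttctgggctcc
CpG dinucleotides numbered 31, 23, 29, 7, 22 and 16 in these windows, in the order shown. The *Zfp846* window was thus the poorest in CpG and the *Ddx4* window the richest. Neither AATAAA, the poly(A) signal, nor GTAAGT, a 5′ splice site, was found on the antisense strand of any of the 6 windows. Over the 1889 members whose RefSeq start lay within 100 bases of the start used, AATAAA stood on the antisense strand in 5.24% of the 250-base windows, against 9.49% of all 32851 RefSeq promoters. GTAAGT stood there in 1.11% of members and 3.13% of all promoters. On the gene's own strand, the same windows held AATAAA in 6.99% of members and 10.4% of all promoters. GTAAGT was found on that strand in 1.96% and 3.35%, and TATAAA in 4.24% and 7.59%. AATAAA and GTAAGT were thus scarcer in members on both strands. Exact letters were searched, without overlap between these motifs. The median GC content of the 300-base promoter was 61% in members and 52.7% in all promoters, and the median ratio of observed to expected CpG was 0.782 against 0.384.

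Antisense RNA from the member regions was higher in every *Dis3* cKO library than in any control library. Summed over all 3081 regions, tested or not, it was 1046, 1039, 937, 827 and 812 CPM in control libraries 1 to 5. In *Dis3* cKO libraries 1 to 5 it was 2535, 1963, 1952, 1655 and 1630 CPM. The means were 932 ± 112 (SD, n = 5) and 1947 ± 365 CPM (SD, n = 5), a ratio of 2.09. The highest control library lay well under the lowest *Dis3* cKO library, and replicates 4 and 5 were the lowest of each group. Antisense counts of the regions amounted to 0.528% to 0.689% of the sense counts of their own downstream genes in control and to 1.05% to 1.68% in *Dis3* cKO. Of all upstream antisense counts, the member regions held 22.2% to 26.2% in control and 27.1% to 33.8% in *Dis3* cKO. The 10 regions with the highest control level held 11.4% of the members' control counts, and without them the ratio was 2.21.

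Background antisense reads also differed between libraries, and their values stand beside this result. Upstream regions of coding genes under 1 CPM, which are nearly silent in these testes, held 246 to 518 CPM in control and 315 to 814 CPM in *Dis3* cKO libraries, with overlap. Per 1000 regions, the members lay 220 to 248 CPM above these silent regions in control and 434 to 679 CPM above them in *Dis3* cKO. Within replicates 1 to 3 the silent regions were at a ratio of 1.06 and the members at 2.13. The silent regions were at 814 CPM in *Dis3* cKO 1 but at 351 and 315 CPM in *Dis3* cKO 2 and 3, under the 362 to 518 CPM of control 1 to 3. Without *Dis3* cKO 1, in a comparison chosen after seeing the data, the ratios within replicates 1 to 3 were 0.715 for the silent regions, 1.94 for the members and 2.35 for the members above the silent regions. Within replicates 4 and 5 the silent regions were at a ratio of 2.13 and the members at 2.0. In replicates 4 and 5 the background was thus higher by as large a factor as the members, while the members' level above the silent regions was still at a ratio of 1.98 (2.49 in replicates 1 to 3). The part of this background in the rise of single member regions was not tested.

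**Figure D1:**
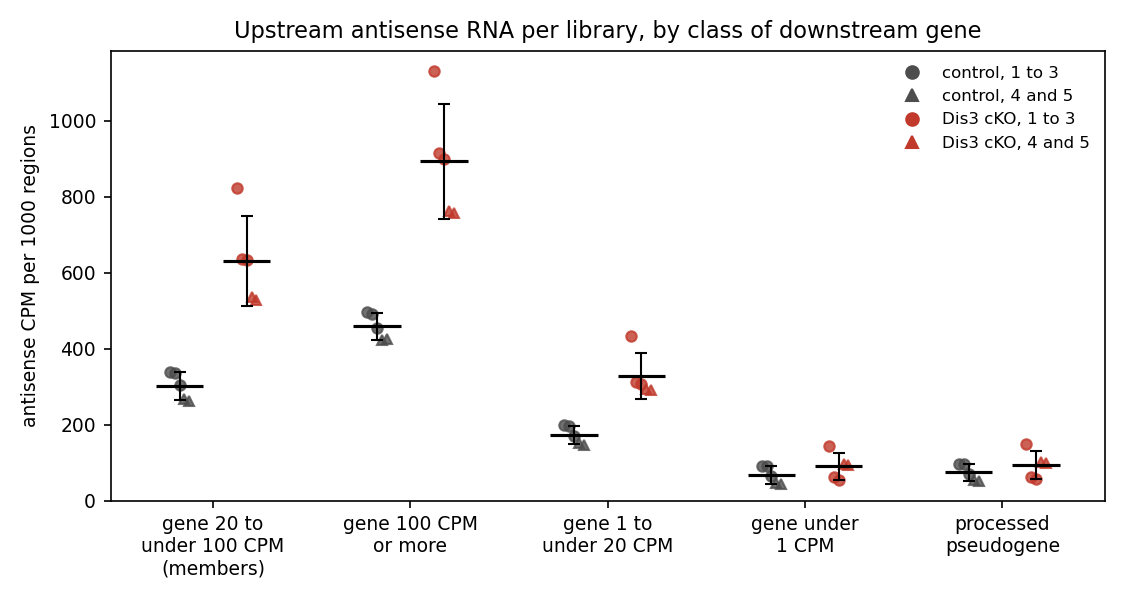
Summed antisense CPM per 1000 upstream regions (vertical axis, from 0) in each library, for 5 classes of downstream gene, where circles are replicates 1 to 3, triangles are replicates 4 and 5, and horizontal lines with bars give each group's mean and SD (n = 5). Members lay at 264 to 340 in control and 529 to 823 in *Dis3* cKO, whereas regions of genes under 1 CPM lay at 43.5 to 91.5 and 55.6 to 144, with overlap.

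Of the 3081 regions, 2570 averaged 3 or more counts a library and were tested, 511 were below that, and 4 held no read in any library. At an adjusted p under 0.05 (edgeR's quasi-likelihood test, Benjamini-Hochberg over all 12345 upstream regions tested), 746 member regions were higher in *Dis3* cKO and 1 was lower. These are 29.0% of the tested members, where 13.6% of all regions tested were called higher and 0.0486% lower. DESeq2 called 857 higher (background 15.9%) and 2 lower (background 0.0648%). Before adjustment, a p under 0.05 was found at 1057 higher (background 21%) and 5 lower members (background 0.284%). The groups did not overlap at 602 tested members with *Dis3* cKO higher (background 11.1%) and at 3 with control higher (background 0.0891%). Of the tested members, 326 had a control mean under 3 counts and passed the filter through *Dis3* cKO, and 93 of these were among the 746.

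The median log2 fold change was 1.02 over the tested members, with the quartiles at 0.42 and 1.74, against 0.64 over all regions tested. A value above 0 was fitted at 2297 members and above 1, which is 2-fold, at 1304. The 746 called regions had a median of 2.08, and 725 of them were above 1. Regions of coding genes at 100 CPM or more had 416 of 1327 tested called higher (31.3%) and a median of 1.0. Regions of genes from 1 to under 20 CPM had 326 of 1829 called higher (17.8%) and a median of 0.88. Regions of genes under 1 CPM had 33 of 1582 (2.09%) and a median of 0.38, and those of processed pseudogenes 17 of 1706 (0.996%) and 0.34. These classes were not tested against each other. They also differed in depth, with control means of 67.3 CPM per 1000 regions for genes under 1 CPM and 303 for the members. Among the members the share called rose with depth, as given below. The part of depth in the shares of the classes was not tested.

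**Figure D2:**
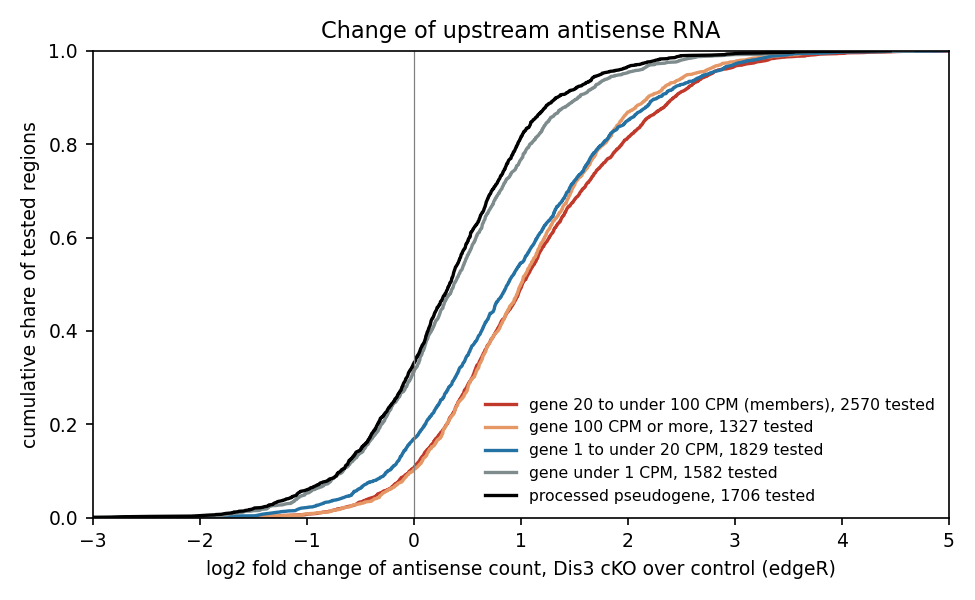
Cumulative share of tested upstream regions (vertical axis) by log2 fold change of the antisense count, *Dis3* cKO over control (horizontal axis), for the same 5 classes. The curves of members and of genes at 100 CPM or more run together up to their medians (1.02 and 1.0), above which the members lie to the right, and those of genes under 1 CPM and of processed pseudogenes lie to the left (0.38 and 0.34).

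With replicates 1 to 3 alone, 667 of 2618 tested members were higher (background 10.8%) and 0 lower by edgeR (background 0.08%), with a median of 0.96, and regions of genes under 1 CPM had a median of -0.03. With replicates 4 and 5 alone, 206 of 2391 were higher (background 3.85%) and 1 lower (background 0.0352%), with a median of 1.22, and the regions of silent genes had a median of 1.25. Of the 2258 tested members with a fit in both sets, 1701 had the same direction in both. When libraries were scaled by the counts upstream of processed pseudogenes, so that this background was level, 458 members were higher (background 8%) and 2 lower (background 0.0729%), with a median of 0.77. When they were scaled on the upstream counts themselves, the median of all regions moved from 0.64 to -0.07, that of the members to 0.32, and 313 members were higher and 22 lower (background 5.28% and 0.932%).

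Deeper regions were called more often. Among tested members with a mean of 3 to under 5 counts, 15 of 528 were called higher, with 97 of 750 from 5 to under 10 counts and 254 of 636 from 10 to under 20. From 20 to under 50 counts it was 281 of 488 (57.6%), and from 50 counts upwards 99 of 168 (58.9%). The medians were closer to each other than the shares, at 0.80, 0.98, 1.15, 1.21 and 1.0 in the same order. By the level of the downstream gene within the bounds, the medians lay between 0.94 and 1.10. Regions of genes from 20 to under 30 CPM had 120 of 515 called higher and a median of 0.94, those from 30 to under 45 CPM 203 of 674 and 1.10, those from 45 to under 70 CPM 214 of 765 and 0.98, and those from 70 CPM upwards 209 of 616 and 1.06.

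The 12 largest increases were taken among called regions with a mean of at least 20 and no overlap. Their separation was thus set by the choice. Control means were 1.94 (*Hmg20b*) to 19.5 (*Plxnd1*), so all 12 reached the mean of 20 only through *Dis3* cKO. They were led by the region upstream of *Ddx4* (ENSMUSG00000021758), the germ cell RNA helicase also known as Vasa. This region (chr13:112652476-112655475, GRCm38, gene on the minus strand) held 0.932, 1.88, 2.52, 1.92 and 2.76 normalized counts in control libraries 1 to 5 and 128, 87.4, 98.4, 55.4 and 50.9 in *Dis3* cKO libraries 1 to 5. Its log2 fold change was 5.30 (SE 0.44, adjusted p = 1.18e-29), whereas the *Ddx4* gene itself went from 3134 to 2623 normalized counts. The Cre transgene of the *Dis3* cKO mice is driven by a *Ddx4* promoter fragment, so reads from the gene's own upstream region and from the transgene cannot be told apart in these counts.

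*Mtf2*, a Polycomb-like cofactor of the histone methyltransferase complex PRC2, had the next largest increase. The region upstream of it held 13, 7.54, 10.1, 7.67 and 3.68 counts in control and 338, 190, 207, 130 and 118 in *Dis3* cKO (log2 fold change 4.52, SE 0.30, adjusted p = 1.86e-43). Every *Dis3* cKO library was far above the highest control library. *Hmg20b*, which encodes a subunit of the LSD1-CoREST complex, had upstream counts of 3.73, 0.942, 5.04, 0 and 0 in control and 61.7, 42.7, 44.7, 21 and 31.7 in *Dis3* cKO (log2 fold change 4.26, SE 0.54). *Zfp846*, a zinc finger gene, had 0.932, 3.77, 4.2, 4.79 and 0 in control and 86.3, 65.5, 49.2, 39.9 and 22.6 in *Dis3* cKO (4.20, SE 0.47). Control libraries were near 0 at the last 2 of these regions, and replicates 4 and 5 were the lowest *Dis3* cKO libraries at all 3.

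Metabolic genes were among the 12. *Sptlc1*, a subunit of the enzyme that starts sphingolipid synthesis, had upstream counts of 10.2, 6.6, 7.56, 0 and 0.919 in control and 99.9, 109, 95.1, 69.8 and 54.3 in *Dis3* cKO (log2 fold change 4.04, SE 0.38). *Pla2g6*, a calcium-independent phospholipase A2, had 4.66, 11.3, 3.36, 7.67 and 0 in control and 86.3, 88.3, 101, 77.5 and 71.3 in *Dis3* cKO (3.96, SE 0.38). *Oaz1*, the antizyme that restrains polyamine synthesis, had 12.1, 30.2, 24.4, 11.5 and 12.9 in control and 387, 254, 286, 175 and 155 in *Dis3* cKO (3.78, SE 0.27, adjusted p = 1.26e-39). The groups were apart at all 3 regions, as the choice required.

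*Plxnd1*, a receptor for semaphorins, had the lowest adjusted p of all members. The region upstream of it held 14.9, 24.5, 20.2, 28.8 and 9.19 counts in control and 363, 292, 378, 258 and 243 in *Dis3* cKO (log2 fold change 3.97, SE 0.26, adjusted p = 8.95e-47). *Dnajc11*, a mitochondrial J-domain protein, had 3.73, 13.2, 5.88, 13.4 and 4.6 in control and 222, 132, 150, 76.4 and 92.8 in *Dis3* cKO (4.03, SE 0.33). *Pramel1*, of the *Prame* family, had 6.52, 8.48, 5.04, 8.63 and 25.7 in control and 228, 168, 168, 125 and 115 in *Dis3* cKO (3.87, SE 0.31). Control 5 was well above the other control libraries at *Pramel1* and still far under any *Dis3* cKO library. *Zbtb40* (0 to 5.65 in control, 14.7 to 64.1 in *Dis3* cKO) and *2900026A02Rik* (0 to 14.1 and 38.8 to 86.3) completed the 12, at log2 fold changes of 3.70 (SE 0.49) and 3.66 (SE 0.41).

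The adjusted p-values of the 12 ranged up to 1.08e-11, the value of *Zbtb40*. Within replicates 1 to 3 and within replicates 4 and 5 taken alone, the smallest log2 fold change of the 12 was that of *Pramel1* in replicates 4 and 5 (2.80). *Ubald2*, which was not among the 12, had the fourth lowest adjusted p of the members (6.96e-37), with 41, 29.2, 25.2, 21.1 and 39.5 counts in control and 488, 314, 291, 246 and 207 in *Dis3* cKO (log2 fold change 3.30, SE 0.24). In all, 312 members fulfilled the conditions of this choice in the upward direction and 0 in the downward direction. The share of all upstream regions that did so is not given here.

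**Figure D3:**
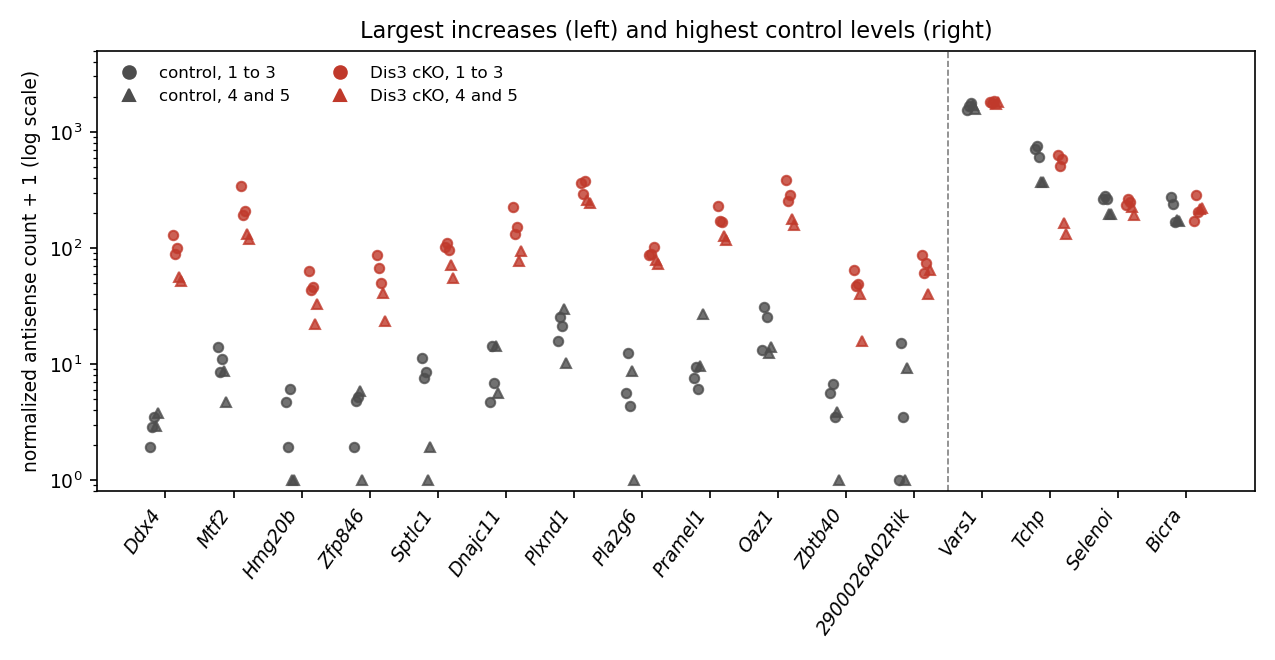
Normalized antisense count plus 1 (vertical axis, log scale) in each library for the 12 largest increases (left of the dashed line) and the 4 highest control levels (right), where circles are replicates 1 to 3 and triangles are replicates 4 and 5. The groups are apart at each of the 12, which was a condition of their choice, as at *Ddx4* (0.932 to 2.76 against 50.9 to 128). They overlap at the 4 regions on the right.

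The 4 regions with the most antisense RNA in control testes, chosen for that level, were not called higher. Upstream of *Vars1*, the valyl-tRNA synthetase, counts were 1547, 1668, 1785, 1710 and 1580 in control and 1795, 1780, 1853, 1734 and 1792 in *Dis3* cKO (log2 fold change 0.11, SE 0.12, adjusted p = 0.733). *Selenoi*, a phospholipid synthesis enzyme, had 195 to 277 in control and 191 to 262 in *Dis3* cKO (-0.05, SE 0.20, adjusted p = 0.953). *Bicra*, a subunit of a SWI/SNF chromatin remodeler, had 165 to 276 and 170 to 283 (0.10, SE 0.21, adjusted p = 0.893). The groups overlapped at all 3 regions.

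*Tchp*, which encodes the keratin-binding protein trichoplein, was the member called lower. Its upstream region held 707, 756, 602, 368 and 371 counts in control and 636, 503, 587, 163 and 130 in *Dis3* cKO (log2 fold change -0.47, SE 0.17, adjusted p = 0.0414). The groups overlapped, and replicates 4 and 5 were the lowest of both groups. The call was lost without control 1, 2 or 3 or without *Dis3* cKO 4 or 5 (adjusted p 0.138 to 0.523), and under DESeq2 (0.559), whose log2 fold change was -0.46. In replicates 1 to 3 alone the log2 fold change of *Tchp* was -0.26 (adjusted p = 0.427, edgeR), and in replicates 4 and 5 alone it was -1.33 (9.21e-05). With this division of the libraries as a term it was -0.67 (2.71e-06), and with the replicate number as a block -0.68 (4.8e-06). At 3 members the groups did not overlap with control higher, although none was called, and these were named after their values were seen. *Magi3* had 16.8 to 34.9 in control and 5.54 to 15.2 in *Dis3* cKO (adjusted p = 0.12), *Pak6* 5.04 to 7.67 and 1.13 to 4.75 (0.746), and *Efemp1* 3.77 to 11 and 0 to 1.9 (0.139).

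Of 19 listed germ cell genes with a member region, 16 were tested and 12 were called higher, *Ddx4* among them. These 12 are 75% of the tested, against 29.0% of all tested members and 13.6% of all regions tested. The median log2 fold change of the 16 was 2.07, against 1.02 over all tested members, and the 4 that were not called were above 0. The regions of *Ddx4*, *Kit* and *Stra8* (control means 2.0, 2.52 and 1.76) reached the minimum of 3 counts only through *Dis3* cKO. So did that of *Stk31* (1.32), which was not called. Reads of the *Ddx4* region cannot be told apart from those of the transgene. The germ cell list was chosen with earlier results of these data known. The summed counts of the listed germ cell genes themselves were lower in *Dis3* cKO testes, as given above, and the part of germ cell content in these values was not tested. *Zbtb16*, which encodes the stem cell factor PLZF, had upstream counts of 26.1, 21.7, 17.6, 22.1 and 13.8 in control and 287, 209, 246, 121 and 157 in *Dis3* cKO (log2 fold change 3.33, SE 0.27, adjusted p = 4.88e-30). *Ret*, the co-receptor for GDNF on spermatogonial stem cells, had 14.9, 0.942, 0, 1.92 and 4.6 in control and 59.2, 51.3, 25.7, 19.9 and 20.4 in *Dis3* cKO (2.96, SE 0.50, adjusted p = 1.21e-07). Neither region overlapped between the groups.

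Further calls were made at genes of undifferentiated spermatogonia and of meiosis. *Etv5*, a GDNF-responsive transcription factor, had upstream counts of 0.919 to 10.4 in control and 9.06 to 41.8 in *Dis3* cKO, with an overlap from *Dis3* cKO 5 (log2 fold change 2.14, SE 0.51, adjusted p = 0.000465). *Trim71*, a TRIM family RNA-binding protein, had 13.4 to 25.2 and 54.3 to 113 (2.0, SE 0.33). *Sycp1*, a protein of the synaptonemal complex, had 11 to 31.1 and 45.6 to 111 (1.99, SE 0.33), although the *Sycp1* gene went from 2278 to 1356 normalized counts. *Fkbp6*, which acts in the piRNA pathway, had 8.27 to 19.2 and 38 to 72.8 (2.16, SE 0.38), and *Brca2*, of homologous recombination, 3.84 to 14.1 and 18.1 to 45.4 (1.85, SE 0.47). *Nefm*, a neurofilament gene on the germ cell list, had 11.5 to 28.6 and 29.9 to 87.6 (1.74, SE 0.33). The groups were apart at all of these but *Etv5*.

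The other 3 calls of the germ cell list each depended on single libraries. *Kit*, the receptor of differentiating spermatogonia, had 0 to 4.66 counts in control and 5.54 to 22.2 in *Dis3* cKO (log2 fold change 2.35, SE 0.77, adjusted p = 0.0209), and the call was lost without control 4 or 5 or *Dis3* cKO 1 or 5 (adjusted p 0.052 to 0.105). *Stra8*, induced by retinoic acid, had 0 to 5.04 and 5.66 to 24.7 (2.57, SE 0.89, adjusted p = 0.0307), and the call was lost without control 2, 4 or 5 or *Dis3* cKO 1 (0.0609 to 0.253). *Taf4b*, a TFIID subunit of germ cells, had 0 to 20.5 and 14.4 to 45.6 with overlap (1.37, SE 0.43, adjusted p = 0.0143), and the call was lost without control 5 or *Dis3* cKO 1 or 2 (0.0742 to 0.102).

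Of the germ cell regions that were not called, *Piwil2*, a PIWI protein, had 12.1, 6.6, 0, 0 and 0 counts in control and 19.7, 19, 19, 4.43 and 3.4 in *Dis3* cKO (log2 fold change 1.79, SE 0.73, adjusted p = 0.0913). It passed without control 1 or *Dis3* cKO 5 (0.0116 and 0.0495). *Stk31* was at 2.15 (SE 1.17), *Rnf17* at 0.71 (SE 0.94) and *Tdrd9* at 0.57 (SE 0.80). *Nxf2*, *Elavl2* and *Tdrd7* were under the minimum of 3 counts. *Nxf2* had no read in any control library and 7.4, 6.65, 4.47, 7.75 and 0 counts in *Dis3* cKO.

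Regions upstream of somatic marker genes gave no call. The 7 lists of Sertoli, Leydig, myoid, stromal, endothelial, macrophage and erythroid markers held 20 member regions, of which 14 were tested. Called were 0 by edgeR (background 13.6%) and 0 by DESeq2 (background 15.9%). At an unadjusted p under 0.05, 1 was higher (background 21%), and the median was 0.65. *Gdnf*, the stem cell factor secreted by Sertoli cells, had upstream counts of 45.7, 45.2, 45.4, 59.4 and 61.6 in control and 38.2, 70.3, 49.2, 53.2 and 29.4 in *Dis3* cKO (log2 fold change -0.09, SE 0.31, adjusted p = 0.936). The groups overlapped at *Gdnf*, and its standard error was the smallest of the 14. *Fshr*, the receptor for follicle-stimulating hormone, had 4.6 to 7.56 and 1.13 to 13.3 (0.36, SE 0.75), and *Erbb4* 2.83 to 11.2 and 1.13 to 7.6 (-0.54, SE 0.86). The median of the 3 Sertoli regions was -0.09.

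The remaining somatic regions had few reads. The 4 myoid regions (*Des*, *Lmod1*, *Smtn* and, named after its values were seen, *Cnn1*) had a median of 0.57 and the 3 stromal regions (*Lamb2*, *Fbln1* and *Lama4*) one of 0.76, with standard errors of 0.91 to 1.16. The 4 endothelial regions had a median of 1.09, from -0.73 at *Eng*, also named after its values were seen, to 1.30 at *Sox18*, whose counts were 0 to 8.38 in control and 5.54 to 20.9 in *Dis3* cKO (SE 0.66, adjusted p = 0.231). No Leydig or erythroid gene had a member region, and the 1 macrophage region was not tested. The germ cell and somatic lists were not tested against each other. Standard errors were 0.66 to 1.18 at the tested somatic regions other than *Gdnf*, so changes of the size of the members' median would not have been detectable at most of them.

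Genes of the RNA exosome and of its nuclear adaptors had 9 member regions, 7 tested and 4 called higher (57.1%, background 13.6%), with a median of 1.89. *C1d*, a partner of the nuclease EXOSC10, had upstream counts of 11.2, 6.6, 3.36, 1.92 and 6.43 in control and 109, 67.4, 54.8, 34.3 and 22.6 in *Dis3* cKO (log2 fold change 3.26, SE 0.41, adjusted p = 5.21e-13). *Tent4b*, a poly(A) polymerase that tags nuclear RNA for decay, had 3.84 to 27.3 and 55.4 to 96.2 (2.39, SE 0.36). *Zcchc8*, the scaffold of the nuclear exosome targeting complex, had 6.43 to 18.6 and 29.4 to 53 (1.89, SE 0.41), and *Nrde2* 0 to 2.83 and 6.64 to 29.6 (4.07, SE 0.91), the latter named after its values were seen. The groups did not overlap at any of the 4. The genes themselves had log2 fold changes of -0.41 (*C1d*), -0.03 (*Tent4b*), -0.04 (*Zcchc8*) and 0.00 (*Nrde2*).

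Among genes of RNA polymerase II and elongation, 5 of 13 tested regions were higher (38.5%, background 13.6%), with a median of 1.07. *Cdk7*, the kinase of TFIIH, had upstream counts of 18.4 to 43.3 in control and 52.1 to 152 in *Dis3* cKO (log2 fold change 1.80, SE 0.29), *Taf12*, of TFIID, 11.3 to 25.7 and 46.5 to 96.2 (1.96, SE 0.33), and *Ell*, an elongation factor, 0 to 11.5 and 26.6 to 57.9 (2.64, SE 0.45). *Hexim1*, an inhibitor of P-TEFb, was at 1.02 (SE 0.29) and *Gtf2a1*, of TFIIA, at 0.97 (SE 0.30), both named after their values were seen. The call of *Gtf2a1* was lost without control 4 or *Dis3* cKO 2 (adjusted p 0.0516 and 0.0853). Of the Integrator and 3′ end cleavage genes, 2 of 5 were higher (40%, background 13.6%). These were *Ints8* (0 to 5.04 in control and 12.3 to 19.7 in *Dis3* cKO) and *Ints3* (0.919 to 7.45 and 8.95 to 17.3). *Ints8* was not called without control 4 (0.0515), nor *Ints3* without control 2, 4 or 5 or *Dis3* cKO 1 or 5 (0.06 to 0.0717 by edgeR). Of 9 Mediator regions only *Med17* was called (1.30, SE 0.41). The share of 11.1% stood against a background of 13.6% and against 29.0% of all tested members. *Med17* was not called without *Dis3* cKO 3 (0.0699), and the list median was 0.68. DESeq2 called 2 Mediator regions (background 15.9%). Splicing genes had 3 of 12 higher (25%, background 13.6%, all tested members 29.0%), with a median of 0.99. These were *Snrpb* (8.27 to 13 and 22.1 to 92.5), *U2af1* (0.84 to 6.71 and 7.93 to 28) and *Hnrnpll* (8.63 to 19.6 and 26.6 to 40.7), the last not without control 4 (0.0574).

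Cell cycle and DNA replication genes had 16 of 35 tested regions higher (45.7%, background 13.6%) and a median of 1.49. *Cdc20*, the activator of the anaphase-promoting complex, had upstream counts of 27.9, 17, 14.3, 6.71 and 3.68 in control and 147, 97.8, 108, 43.2 and 43 in *Dis3* cKO (log2 fold change 2.65, SE 0.33, adjusted p = 4.97e-13). *Ccnd1*, cyclin D1, had 1.92 to 29.8 and 57 to 110 (2.30, SE 0.33), and *Ccnb1*, cyclin B1, 0 to 6.52 and 14.5 to 33.3 (3.74, SE 0.66). Chromatin regulators had 9 of 16 higher (56.25%, background 13.6%) and a median of 1.47. They included *Smarcd2*, of SWI/SNF, with 27.8 to 67.1 and 102 to 199 (1.84, SE 0.26), the acetyltransferase *Kat5* with 4.66 to 15.3 and 12.5 to 59.3 (2.03, SE 0.41), and the histone methyltransferase *Suv39h2* with 5.51 to 38.2 and 39.6 to 56.7 (1.57, SE 0.37). The groups overlapped at *Kat5*, where *Dis3* cKO 5 was low.

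DNA repair genes had 5 of 13 tested regions higher (38.5%, background 13.6%) and a median of 0.86. *Xrcc5*, which encodes Ku80, had upstream counts of 8.38, 18.8, 8.4, 0.959 and 8.27 in control and 126, 85.5, 103, 69.8 and 65.7 in *Dis3* cKO (log2 fold change 3.31, SE 0.35, adjusted p = 3.8e-18). *Ercc6*, of transcription-coupled repair, had 0, 0, 0, 2.88 and 0 in control and 39.5, 36.1, 41.4, 41 and 28.3 in *Dis3* cKO, so that its fitted value of 5.78 depends on the prior count. The helicase *Blm* was at 2.45 (SE 0.47). *Fanci* (2.16, SE 0.73) was named after its values were seen. The call of *Fanci* was lost without control 1, 4 or 5 or *Dis3* cKO 1 or 2 (adjusted p 0.0519 to 0.258).

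Ubiquitin ligases and enzymes had 11 of 31 tested regions higher (35.5%, background 13.6%) and a median of 0.89. Among them were *Ube2n* at 2.41 (SE 0.31), *Rbx1* at 2.78 (SE 0.45) and *Usp36* at 2.61 (SE 0.53). Of 6 proteasome regions only *Psmb4* was called (1.77, SE 0.43), and the list median was 1.17. The share of 16.7% stood against a background of 13.6% and against 29.0% of all tested members. Mitochondrial ribosomal protein genes had 10 of 21 higher (47.6%, background 13.6%) and a median of 1.38. *Mrpl23* had 0 to 9.19 counts in control and 28 to 43.2 in *Dis3* cKO (2.84, SE 0.50), *Mrpl38* 1.68 to 5.59 and 14.4 to 37 (3.07, SE 0.60), and *Mrps18a* 0 to 9.42 and 6.64 to 34.5 (2.72, SE 0.62). Genes of oxidative phosphorylation had 5 of 13 higher (38.5%, background 13.6%) and a median of 1.32. The 5 were *Atp5mj* (2.35, SE 0.46), *Atp5mc1* (1.20, SE 0.25), *Ndufa9* (2.02, SE 0.57) and, named after their values were seen, *Ndufb4* (1.71, SE 0.54) and *Ndufv1* (1.74, SE 0.61). The call of *Ndufb4* was lost without *Dis3* cKO 3 (adjusted p = 0.0933 by edgeR). That of *Ndufv1* was lost without any of 8 libraries, all but control 5 and *Dis3* cKO 4 (0.0511 to 0.118).

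Genes with a Zfp symbol, most of them zinc finger transcription factors, were the largest list with a lower share called than the members as a whole, a difference that was not tested. Of 79 tested regions 17 were higher (21.5%, background 13.6%), with a median of 0.95. Besides *Zfp846*, *Zfp330* had upstream counts of 114, 89.5, 77.3, 53.7 and 58.8 in control and 571, 442, 463, 275 and 273 in *Dis3* cKO (log2 fold change 2.36, SE 0.21, adjusted p = 3.24e-25). *Zfp180* had 0.84 to 15.1 and 36.2 to 98.7 (2.56, SE 0.37). The 2280 tested members in no list had 645 called higher (28.3%) and a median of 1.01. DESeq2 called 25 of the Zfp regions higher and 743 of those in no list (background 15.9%).

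**Figure D4:**
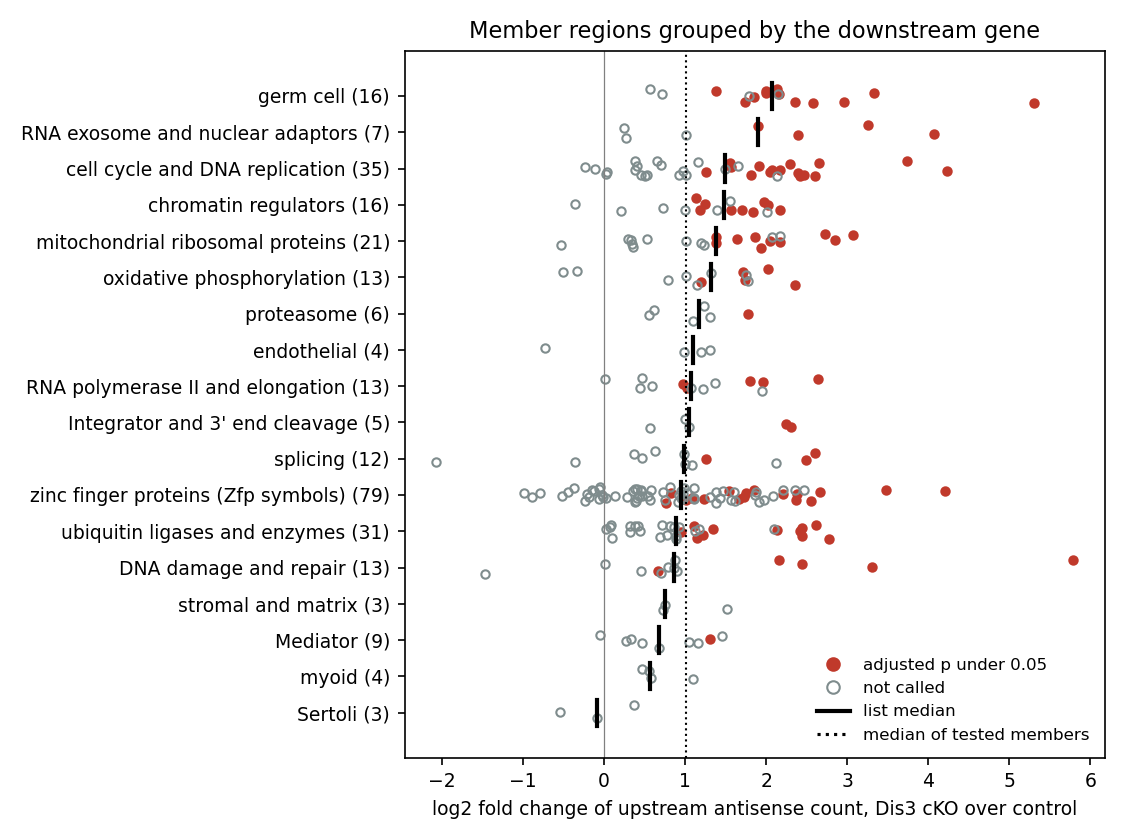
Log2 fold change of the upstream antisense count, *Dis3* cKO over control (horizontal axis), for each tested member region, grouped by lists of downstream genes with the number tested in brackets, with filled points for an adjusted p under 0.05, thick bars for list medians and a dotted line for the median of the tested members. List medians run from -0.09 (Sertoli) to 2.07 (germ cell).

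Scaled by the gene counts, the downstream genes of the members had smaller log2 fold changes than the upstream regions. Their level in control chose the members, so these values are a description with no test. TMM on the gene counts centres most genes near 0, so a gene median near 0 was largely set by the scaling. The upstream regions took the same factors and were not centred by them. The median log2 fold change of the gene was -0.02 over the 2570 tested members, with the quartiles at -0.14 and 0.10. It was -0.06 over the 746 called higher and -0.01 over those not called. Among the 746 no gene changed by more than 2-fold, and 487 of them were below 0. Across the 2570 regions, which share all 10 libraries, Pearson's r between the log2 fold change of region and gene was -0.14 and Spearman's rho -0.16, and within the 746 they were -0.01 and -0.01. At similar rises of their upstream RNA, the *Mtf2* gene went from 2690 to 2049 normalized counts and the *Plxnd1* gene from 2994 to 4038. The log2 fold changes of these genes, -0.39 and 0.43, lay outside the quartiles given above.

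**Figure D5:**
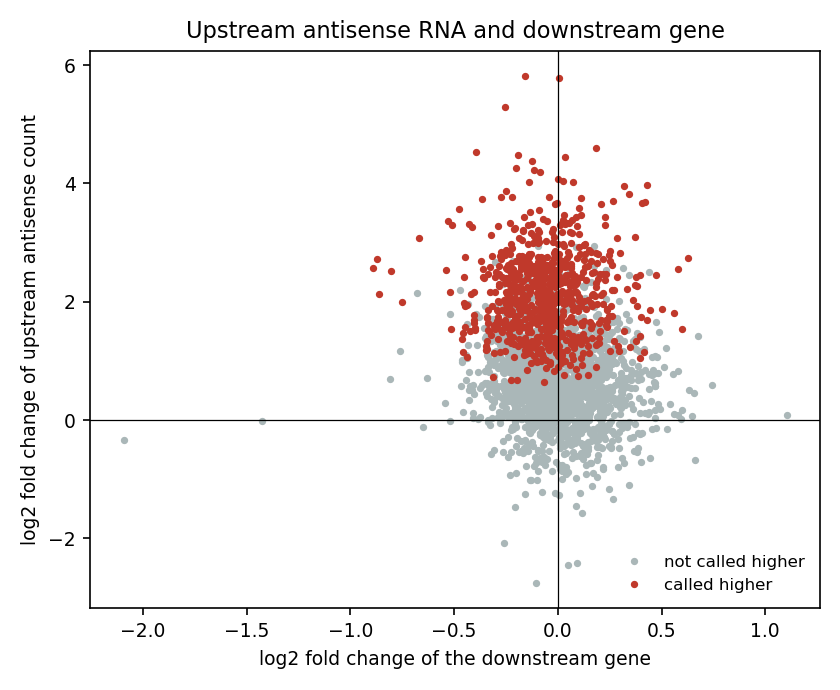
Log2 fold change of the upstream antisense count (vertical axis) against that of the downstream gene (horizontal axis) for the 2570 tested members, with red for regions called higher. Red points lie within 1 of 0 on the horizontal axis and spread upwards, with medians of 2.08 for the region and -0.06 for the gene.

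Members with and without a neighbouring start had nearly the same values. An annotated gene start on the opposite strand lay within 10 kb upstream of 452 members, of which 391 were tested, 114 called higher (29.2%) and the median 1.06. Of the 2179 tested members without such a neighbour, 632 were higher (29.0%), with a median of 1.01. Without the 213 members whose region overlapped another upstream region, 692 of 2390 were higher, with a median of 1.01. Members on the plus strand had 400 of 1344 higher and those on the minus strand 346 of 1226. On the X chromosome 167 members lay, of which 92 were tested and 15 called higher (16.3%), with a median of 1.12, against 729 of 2476 tested on the autosomes (29.4%) and a median of 1.01. None of these subsets was tested against another. By GC content of the promoter, 95 of 416 tested members with up to 55.7% and 127 of 386 with over 68% were called higher, with medians of 0.98 and 1.10.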

How the data were processed

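The authors used cutadapt for trimming, HISAT2 for alignment and featureCounts 1.6.4 for counting, and deposited raw counts per gene (sense strand) and per upstream region (antisense strand, from 3 kb to 1 base before the annotated start). The file headers name GENCODE M18 and the labels GRCm38.p5, whereas the study's methods name a later build and annotation. Coordinates are those of the deposited files. Biotypes and symbols came from GENCODE M39, which matched 28745 of 30166 upstream and 50129 of 54232 gene identifiers. Gene counts per library were 28538849 to 41104912, and antisense counts over all upstream regions 116141 to 256460.

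Upstream regions that averaged 3 or more counts a library were fitted together with edgeR 4.0.16 (quasi-likelihood test, R 4.3.3, 5 control against 5 *Dis3* cKO libraries), using the gene counts for library sizes and for TMM. P-values are two-sided and were adjusted by Benjamini-Hochberg over 12345 regions. Standard errors (SE) were not fitted but derived, as the absolute log2 fold change divided by the square root of the test's F statistic. The script was tested on simulated data. Alternatives were DESeq2 1.42.0, other scalings and filters, the replicate number as a block, the division of the libraries as a term or alone, overlapping regions left out, and each library left out. Summaries and plots used Python 3.11.15.

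The member regions and gene lists were chosen with earlier results of these data known. Named were the 12 largest increases and up to 5 decreases among called regions with a mean of at least 20 and no overlap, the 4 lowest adjusted p-values, the 4 highest control means, all germ cell members and up to 3 members of each other list with 3 or more tested. Others are said to be named after their values were seen. Promoter sequences are from RefSeq (GRCm38.p6), which held 2429 of the members. Counts of the same regions on the sense strand were not used here, and 1 called region of the DNA repair list is not reported here.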

Additional observations from a re-analysis of the deposited data

Results flagged for a closer look

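Groups of 5 libraries were examined at named regions and for library-wide levels, 208 in all. In 15 of them, all at named regions, 1 library lay far from the others, measured as its gap to the nearest library over the whole range of the group. Values over 0.71 are listed. Chance gives such a value in about 1 in 20 groups of normally distributed values, which groups of few reads are not. Among the larger counts, control 5 stood apart upstream of *Pramel1* (0.827, 25.7 counts against 5.04 to 8.63), control 4 upstream of *Fkbp6* (0.808, 19.2 against 8.27 to 10.4) and control 2 upstream of *Med17* (0.857, 20.7 against 11.8 to 13). Of the *Dis3* cKO libraries, replicate 1 was high upstream of *Stra8* (0.773, 24.7 against 5.66 to 9.97) and *Tent4b* (0.713, 96.2 against 55.4 to 67.1), replicate 4 high upstream of *Robo4* (0.743, 14.4 against 0 to 3.70) and replicate 5 low upstream of *Pcf11* (0.789, 3.40 against 19.9 to 24.4). The other values came from control groups of few reads, namely *Elavl2* (0.754, control 4), *Stk31* (0.835, control 2), *Rnf17* (0.751, control 5), *Des* (0.73, control 1), *Lama4* (0.735, control 4), *Ints3* (0.755, control 1), *Ccnb1* (0.856, control 1) and *Ercc6* (1, control 4, the one control library with reads).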

How the results depend on the processing

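The number of member regions called higher was 746. Scaling by the upstream counts themselves gave 313, scaling by the regions of processed pseudogenes 458, and replicates 4 and 5 alone 206, which leaves fewer samples. The number called lower was 1. It was 22 when scaled by the upstream counts, 2 under the pseudogene scaling, under DESeq2 and under edgeR's filterByExpr (1294 members tested), and 0 in replicates 1 to 3 alone. The median log2 fold change moved from 1.02 to 0.32 under scaling by the upstream counts. The log2 ratio of the summed member counts, 1.06, moved to 0.34 under that scaling and to 0.82 under the pseudogene scaling. Leaving out each library in turn gave 602 to 736 higher, 0 to 2 lower, a median of 0.88 to 1.10 and a log2 ratio of 0.95 to 1.12. At named regions that were not called, the sign of the log2 fold change turned 25 times. Scaling by the upstream counts gave -0.60 for *Vars1* (then called lower, adjusted p = 0.00717, edgeR), -0.56 for *Bicra*, -0.16 for *Tdrd9*, -0.33 for *Fshr*, -0.12 for *Lmod1*, -0.18 for *Smtn*, -0.099 for *Lama4*, -0.11 for *Psme4* and -0.26 for *Cnn1*. The pseudogene scaling gave -0.15 for *Vars1* and -0.055 for *Bicra*. Replicates 1 to 3 alone gave -0.0501 for *Bicra*, 0.22 for *Gdnf*, -0.44 for *Smtn* and -0.12 for *Kdr*, and replicates 4 and 5 alone 0.088 for *Selenoi*, -0.16 for *Tdrd9*, -0.72 for *Fshr*, -0.39 for *Lmod1* and -0.054 for *Lama4*. Leaving out single libraries, *Selenoi* ranged from -0.12 to 0.012 (above 0 without control 2, 0.0081, control 3, 0.00053, or *Dis3* cKO 5), *Bicra* from -0.014 to 0.23 (below 0 without *Dis3* cKO 2) and *Gdnf* from -0.27 to 0.0399 (above 0 without *Dis3* cKO 5). The causes of these shifts were not tested. Of 1887 values of 93 tested named regions under alternatives, 1727 kept direction and side of the threshold, 12 gained a call and the others lost one or turned. Of the 64 named regions called with all libraries, 52 kept the call without any single library and 12 lost it without at least 1, and of the 29 not called, *Piwil2* gained one. Within replicates 1 to 3 and without *Dis3* cKO 1, an alternative chosen after seeing the data, the log2 ratio of the summed counts was 0.96.

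With the replicate number as a block, 732 regions were higher and 1 lower, with a median of 1.08, and of the named regions this pairing changed the call of *Piwil2* alone (adjusted p = 0.035, edgeR). The labels do not say that a number marks shared animals. Deviations from the group means correlated at 0.0826 to 0.183 over genes between libraries of 1 number and at -0.0238 to 0.0391 over upstream regions, and not every library matched its own number best, so the numbers were not taken as pairs. The summed ratio takes no value from a filter on low counts, from the block or from the division of the libraries as a term. The median member region held 7.6 counts per library, which limits single regions more than sums.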
